A study of Mus musculus with 6 samples.

Results

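Mrc1 and 9 further genes of alternative macrophage activation were followed in 6 RNA-seq libraries of mouse bone marrow-derived macrophages (BMDMs), primary macrophages grown from marrow of the C57BL/6 strain. The genes were Mrc1, Il4ra, Stab1, Ccl22, Arg1, Chil3, Retnla, Pparg, Irf4 and Clec10a, chosen by symbol, and all 10 were found among the 55401 Ensembl genes of the deposited count table. In 3 libraries the cells had been transfected with a negative-control siRNA (siNC) and in 3 with an siRNA against Piezo1 (siPiezo1), the gene of a mechanically gated cation channel. Cells of both groups were mechanically stretched for 4 h, so that siPiezo1 against siNC under stretch is the only comparison. No interleukin is named among the treatments, and the labels do not tell whether replicates came from separate cultures or animals. P-values therefore measure only the spread between these libraries, which may be technical.

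Alternative activation is the state that macrophages enter when interleukin-4 (IL-4) or interleukin-13 (IL-13) binds a receptor containing the Il4ra chain. The receptor's JAK kinases phosphorylate the transcription factor STAT6, which works with factors such as IRF4 and PPARgamma to switch on endocytic receptors (Mrc1, Stab1, Clec10a), secreted proteins (Chil3, Retnla, Ccl22) and the arginine-degrading enzyme arginase (Arg1). In bone marrow-derived macrophages grown without these interleukins some of the receptor genes are already transcribed, while Arg1 and Retnla are usually low.

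Libraries held 61086684 to 75052745 estimated counts, and 1 sequenced fragment was worth about 3.79 of them. Levels are in CPM, a gene's counts per 1000000 counts of its library after TMM scaling, which equalizes the bulk of genes between libraries. Piezo1 itself was read at 180, 285 and 189 CPM in replicates 1 to 3 of siNC. In those of siPiezo1 it was at 111, 109 and 113 CPM. This left 51.0% of the siNC mean, or 60.2% of the mean of siNC replicates 1 and 3. Its log2 fold change was -0.97 ± 0.18 (SE) with all 6 libraries (adjusted p = 0.744, edgeR's quasi-likelihood test, Benjamini-Hochberg), so even Piezo1 was not called. Without siNC replicate 2 it was -0.73 ± 0.06 (SE) and was called (adjusted p = 0.00245, same test and adjustment). All 15 macrophage markers examined, Lyz2, Csf1r and Adgre1 among them, reached at least 5 CPM in every library. The library siNC 2 stood apart: the correlation of log2 CPM across genes was 0.938 to 0.951 in pairs that included it and 0.958 to 0.969 in pairs that did not. The summed level of 16 neutrophil markers was 4784 CPM in siNC 2 and 1044 to 1282 CPM elsewhere. That of 9 fibroblast markers was 76.8 CPM against 9.69 to 18.6 CPM. Of the neutrophil markers 14 were highest in siNC 2, but of the fibroblast markers only 4. No fibroblast marker reached 5 CPM in every library. The summed macrophage markers were 57367 CPM in siNC 2 and 66949 to 72181 CPM elsewhere. Results that rest on it are therefore given with and without siNC 2.

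The 10 genes fell into 3 classes of abundance. Mrc1, Il4ra, Stab1 and Chil3 reached at least 5 CPM in all 6 libraries and were well above background. Pparg and Clec10a were low, with at least 1 CPM in all 6 libraries and never above 7.29 CPM. Ccl22, Arg1, Retnla and Irf4 reached 1 CPM in fewer than 3 libraries and were near background, although Arg1 was abundant in siNC 2. As a yardstick, 18 of 20 genes of unrelated tissues, such as Alb and Myh6, stayed under 1 CPM in every library. The exceptions were Tnnt2, with 3.91 CPM in siNC 2, and Mbp, at 96.1 to 137 CPM, a gene that also has transcripts in blood cells. After the filter on low counts 8 of the 10 genes were tested, and Retnla and Irf4 were not.

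None of the 8 tested genes passed the threshold with all 6 libraries in edgeR's quasi-likelihood test (adjusted p under 0.05, Benjamini-Hochberg), where 0.00627% of all 15959 tested genes did. At an unadjusted p under 0.05, 3 of them (Mrc1, Il4ra and Ccl22) were lower in siPiezo1 and 0 higher, against 2.41% lower and 2.52% higher of all genes. DESeq2 called 1 of them lower, Mrc1, and 0 higher, where it called 0.265% of all genes lower and 0.29% higher (0.555% in all), and limma-voom called 0 of them. Without siNC 2 edgeR called 1 lower, Stab1, where 0.45% of all genes were called lower, 0.645% higher and 1.09% in all, and at an unadjusted p under 0.05 5 were lower and 1, Arg1, higher, against 6.71% and 7.54% of all genes. For Mrc1, Il4ra and Ccl22 every siPiezo1 library lay below every siNC library, which held for 5.65% of all tested genes; the reverse held for 0 of the 8 and for 6.25% of all. The fitted log2 fold change was below 0 for all 8 with 6 libraries, against 52.0% of all genes, and for 7 of 8, all but Arg1, without siNC 2, against 49.5%. The genes were chosen with earlier results of these data known, so these counts describe them and do not test them as a group.

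**Figure D1:**
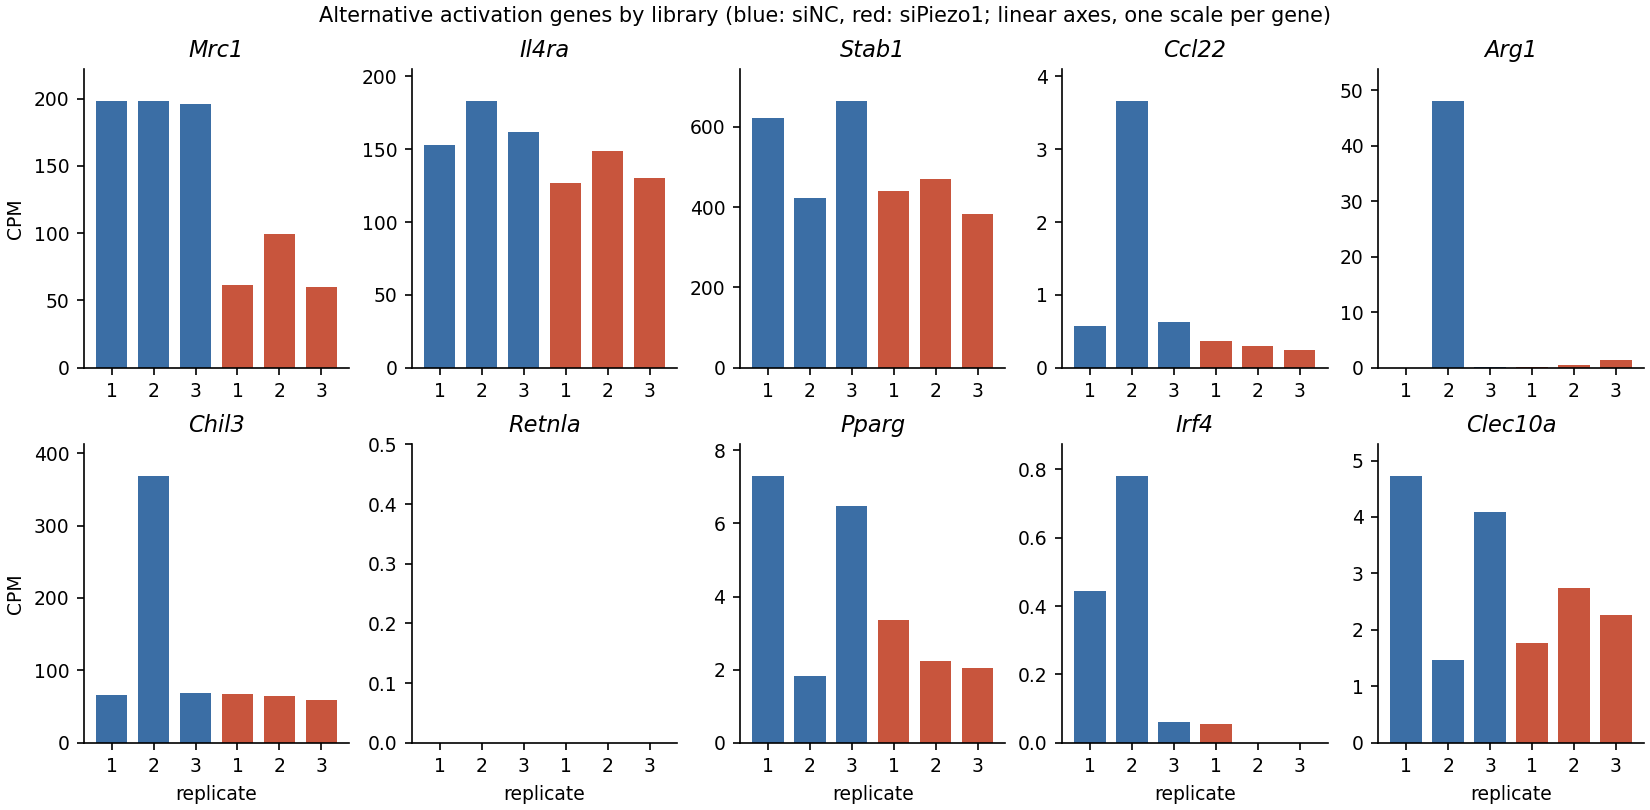
Level of each of the 10 genes in CPM (vertical axes, linear from 0, a separate scale for each gene) in replicates 1 to 3 of siNC (blue bars) and siPiezo1 (red bars). Mrc1 is level across siNC and lower in each siPiezo1 library, Ccl22, Arg1 and Chil3 peak in siNC 2, Pparg and Clec10a are high in siNC 1 and 3, and Retnla is at 0.

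Mrc1 (ENSMUSG00000026712) encodes the mannose receptor CD206, a C-type lectin that takes up mannosylated glycoproteins and is a standard surface marker of alternative activation. Its level was 198, 198 and 196 CPM in siNC 1, 2 and 3 and 61.4, 99.3 and 60.3 CPM in siPiezo1 1, 2 and 3. All siPiezo1 libraries lay below all siNC libraries, and within siPiezo1 replicate 2 stood above the others. The means were 198 ± 1.07 CPM and 73.7 ± 22.2 CPM (SD, n = 3), so siPiezo1 held 37.3% of the siNC level, a log2 fold change of -1.42 ± 0.20 (SE). With all 6 libraries this did not pass edgeR's quasi-likelihood test (adjusted p = 0.338, Benjamini-Hochberg; unadjusted p = 0.000233, rank 11 of 15959 genes). An exact two-sided permutation test over libraries gave p = 0.1, the smallest that 3 against 3 allow. In bulk RNA, fewer cells that carry a transcript and less of it per cell cannot be told apart.

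The size of the Mrc1 difference hardly depended on siNC 2: without that library the log2 fold change was -1.42 ± 0.27 (SE; adjusted p = 0.144, edgeR's quasi-likelihood test, Benjamini-Hochberg), with p at rank 808 of 16442 genes. The call turned on siPiezo1 2 and on the tool. Without siPiezo1 2 the log2 fold change was -1.70 and passed (adjusted p = 0.0452, edgeR's quasi-likelihood test, Benjamini-Hochberg), and Mrc1 was then the 1 gene of the table called lower (0.00603% of those tested), with 0 called higher. DESeq2 called it with all 6 libraries (adjusted p = 1.57e-07, Benjamini-Hochberg), limma-voom did not (adjusted p = 0.287), and over all alternatives the adjusted p ran from 1.57e-07 to 1.

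Mrc1 varied little within siNC and much within siPiezo1. Its highest siNC library was 1.011 times its lowest, and of 8710 tested genes with a mean of at least 10 CPM only 0.161% had a smaller ratio; the median ratio was 1.27. In siPiezo1 the ratio was 1.65, against a median of 1.14, and 4.99% of genes had a larger one. The level in siPiezo1 2 was 1.63 times the mean of siPiezo1 1 and 3, while Piezo1 was at 109 CPM there and at 111 and 113 CPM in the other siPiezo1 libraries. With all 6 libraries a log2 fold change as low as that of Mrc1 or lower was fitted for 40 of the 8710 genes, Mrc1 included. Some of them lay that low only through siNC 2. The neutrophil marker S100a9, for example, had -1.54 ± 0.67 with all libraries and -0.24 ± 0.07 (SE) without siNC 2. How many of the 40 depend on siNC 2 was not counted.

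The RefSeq promoter of Mrc1, 250 bases before to 50 after the annotated start, lies on the plus strand of GRCm38.p6 at chr2:14229164-14229463. It is shown because Mrc1 had the smallest unadjusted p of the 8 tested genes. Capitals mark the core letters GAGGAA of sites for PU.1, the myeloid transcription factor, which here occur 3 times, each on the opposite strand and so written as TTCCTC.
Mrc1 promoter: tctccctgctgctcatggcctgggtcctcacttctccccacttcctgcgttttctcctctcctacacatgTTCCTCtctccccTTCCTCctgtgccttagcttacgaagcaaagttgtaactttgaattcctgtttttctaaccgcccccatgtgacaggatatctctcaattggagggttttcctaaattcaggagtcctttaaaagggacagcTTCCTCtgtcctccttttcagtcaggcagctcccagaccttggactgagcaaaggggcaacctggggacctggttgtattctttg

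Among the other mannose receptor family genes, Ly75, which encodes the endocytic receptor DEC-205, was at 72.6, 91.1 and 74.1 CPM in the 3 siNC libraries and 101, 96.9 and 112 CPM in the 3 siPiezo1 libraries. All siPiezo1 libraries lay above all siNC libraries, the opposite order to Mrc1. Its log2 fold change was 0.38 ± 0.12 with all 6 libraries and 0.49 ± 0.08 (SE) without siNC 2, where Ly75 rose past the threshold (adjusted p = 0.0297, edgeR's quasi-likelihood test, Benjamini-Hochberg). Pla2r1 stood between 0.433 and 1.88 CPM with overlapping groups, and Mrc2 at 0 to 0.212 CPM.

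Stab1 (ENSMUSG00000042286) encodes stabilin-1, a scavenger and clearance receptor of macrophages and endothelium that binds acetylated LDL and the matrix protein SPARC. It was at 622, 422 and 664 CPM in the 3 siNC libraries and 441, 470 and 383 CPM in the 3 siPiezo1 libraries. The groups overlapped because siNC 2 lay at the siPiezo1 level, whereas siNC 1 and 3 lay above all siPiezo1 libraries. The means were 569 ± 129 and 431 ± 44.7 CPM (SD, n = 3), or -0.40 ± 0.18 in log2 fold change (SE; adjusted p = 0.978, edgeR's quasi-likelihood test, Benjamini-Hochberg). Without siNC 2 Stab1 fell, at -0.58 ± 0.09 in log2 fold change (SE; adjusted p = 0.0291, the same edgeR test, Benjamini-Hochberg), and siPiezo1 then held 67.1% of the siNC level; over all alternatives the adjusted p ran from 0.0291 to 1. The exons of Stab1 share 112 bases, 1.1% of their length, with Nt5dc2 on the opposite strand. Its sister gene Stab2, an endothelial receptor, reached at most 0.0397 CPM.

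The RefSeq promoter of Stab1, the member called without siNC 2, is on the minus strand of GRCm38.p6 at chr14:31168592-31168891. It holds the PU.1 core GAGGAA once, in capitals.
Stab1 promoter: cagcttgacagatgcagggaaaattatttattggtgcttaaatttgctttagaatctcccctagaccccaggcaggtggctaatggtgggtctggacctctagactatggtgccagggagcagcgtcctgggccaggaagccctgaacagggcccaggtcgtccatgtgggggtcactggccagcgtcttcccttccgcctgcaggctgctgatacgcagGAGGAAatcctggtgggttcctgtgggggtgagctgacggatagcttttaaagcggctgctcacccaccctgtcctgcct

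Other endocytic receptors gave mixed values. Of 11 genes of this list 10 were tested, 5 below and 5 above 0, with a median log2 fold change of -0.06 against -0.01 for all genes. The fatty acid and oxidized-LDL receptor Cd36 was at 663, 358 and 653 CPM in siNC and 526, 520 and 473 CPM in siPiezo1. Like Stab1 it overlapped through siNC 2, with a log2 fold change of -0.14 ± 0.23 (SE) with all libraries. Without siNC 2 it fell (-0.38 ± 0.06, SE, adjusted p = 0.0351, edgeR's quasi-likelihood test, Benjamini-Hochberg). The scavenger receptor genes Msr1 and Cd163 had log2 fold changes of -0.38 ± 0.33 and 0.01 ± 0.19 (SE) with all libraries and 0.14 ± 0.08 and 0.03 ± 0.22 (SE) without siNC 2, and Msr1 was highest in siNC 2, at 686 CPM against 280 to 354 CPM elsewhere.

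Clec10a (ENSMUSG00000000318) encodes MGL1, a lectin for galactose and N-acetylgalactosamine. It was at 4.72, 1.47 and 4.08 CPM in the 3 siNC libraries and 1.77, 2.75 and 2.26 CPM in the 3 siPiezo1 libraries, or 287, 111 and 273 counts against 127, 207 and 151. siNC 1 and 3 were above all siPiezo1 libraries and siNC 2 was below them, so the groups overlapped. The log2 fold change was -0.60 ± 0.46 with all libraries and -0.96 ± 0.28 (SE) without siNC 2, past the threshold in neither. Its transcripts match those of the neighbouring family gene Mgl2 at 93.9% over 830 bases, so counts could be split between them. Mgl2 held 1.18 CPM in siNC 2, close to the 1.47 CPM of Clec10a there, and 0 to 0.135 CPM elsewhere. Of 17 myeloid C-type lectin genes 12 were tested, 8 below and 4 above 0, with a median of -0.06 and 0 called in either direction, with or without siNC 2.

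Il4ra (ENSMUSG00000030748) encodes the IL-4 receptor alpha chain, shared by the receptors for IL-4 and IL-13. It was at 153, 183 and 162 CPM in the 3 siNC libraries and 127, 149 and 130 CPM in the 3 siPiezo1 libraries. The groups did not overlap, although siPiezo1 2 came close to siNC 1. The siPiezo1 mean of 135 ± 12.0 CPM was 81.1% of the siNC mean of 166 ± 15.4 CPM (SD, n = 3), or -0.30 ± 0.10 in log2 fold change (SE; adjusted p = 0.978, edgeR's quasi-likelihood test, Benjamini-Hochberg). Without siNC 2 it was -0.23 ± 0.08 (SE; adjusted p = 0.237, same test and adjustment). An antisense gene, Gm44876, shares 571 bases, 9.5% of the Il4ra exons, and the use of strand in counting is not stated in the labels.

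The partners of Il4ra were present, and none was called. Il2rg, the common gamma chain that pairs with Il4ra, was at 439, 354 and 441 CPM in the 3 siNC libraries and 458, 459 and 479 CPM in the 3 siPiezo1 libraries (log2 fold change 0.18 ± 0.11, SE, and 0.08 ± 0.05 without siNC 2). In Il2rg every siPiezo1 library lay above every siNC library, which held for 6.25% of all tested genes. Il13ra1, the partner chain for IL-13, had 0.05 ± 0.21 with all libraries and 0.31 ± 0.12 (SE) without siNC 2. The kinase genes Jak1 and Jak3 had 0.08 ± 0.08 and -0.16 ± 0.13 with all libraries and 0.04 ± 0.06 and -0.28 ± 0.09 (SE) without siNC 2. Stat6 had 0.09 ± 0.12 and, without siNC 2, -0.03 ± 0.06 (SE). None passed the edgeR threshold, with or without siNC 2, which does not show that they were equal. RNA levels say nothing of STAT6 phosphorylation. Of the ligands, Il4 stayed between 0.224 and 0.929 CPM and Il13 was listed at 0 in all 6 libraries.

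**Figure D2:**
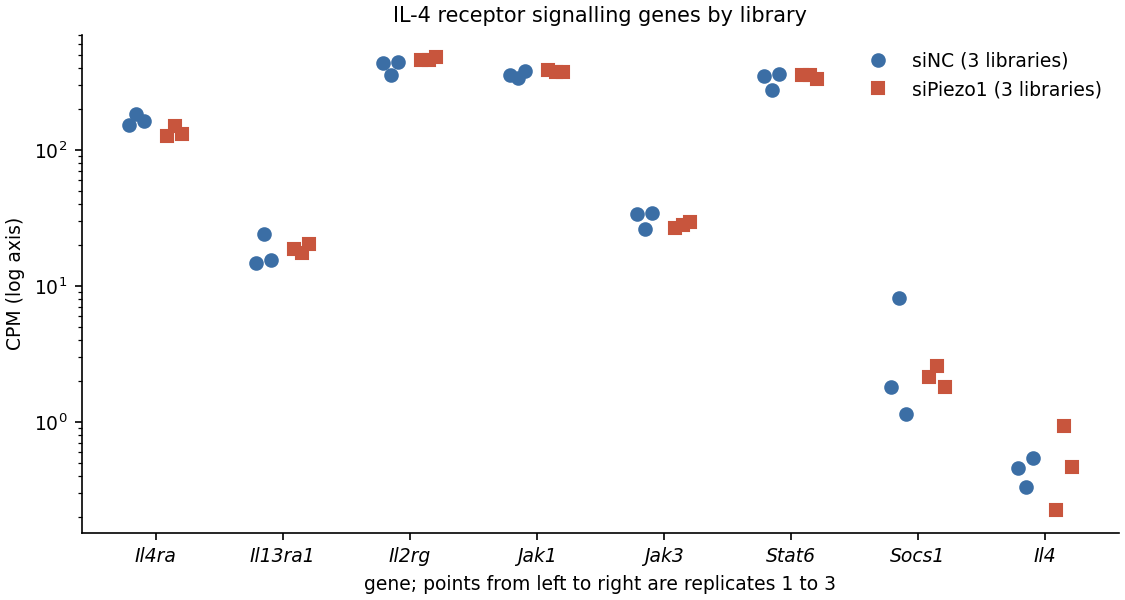
CPM (vertical log axis) of 8 genes of IL-4 receptor signalling in siNC (blue circles) and siPiezo1 (red squares), with replicates 1 to 3 from left to right within a group; levels are to be compared within a gene. Il4ra is lower and Il2rg higher in siPiezo1 without overlap, Stat6 and Jak1 overlap, and Socs1 is highest in siNC 2 at 8.11 CPM.

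Feedback genes of the pathway followed siNC 2. Socs1, an inhibitor of JAK kinases, was at 1.79, 8.11 and 1.15 CPM in the 3 siNC libraries and 2.15, 2.57 and 1.81 CPM in the 3 siPiezo1 libraries. Socs3 acts mainly on the IL-6 family pathway. It was at 35.0, 272 and 38.6 CPM in the 3 siNC libraries and 56.3, 58.3 and 73.6 CPM in the 3 siPiezo1 libraries. Its log2 fold change was -0.88 ± 0.79 (SE) with all libraries and was not called. Without siNC 2 the sign reversed, to 0.77 ± 0.13 (SE, adjusted p = 0.0351, edgeR's quasi-likelihood test, Benjamini-Hochberg). Across the 20 genes of IL-4 and IL-13 signalling 17 were tested, 6 below and 11 above 0, with a median of 0.03 with all libraries and 0.05 without siNC 2. With all libraries edgeR called 0 of them and DESeq2 0, and Socs3 was the 1 called without siNC 2.

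Pparg (ENSMUSG00000000440) encodes the lipid-sensing nuclear receptor PPARgamma, which IL-4 induces and which supports oxidative metabolism in alternatively activated cells. It was at 7.29, 1.84 and 6.49 CPM in the 3 siNC libraries and 3.37, 2.24 and 2.05 CPM in the 3 siPiezo1 libraries, or 443, 139 and 434 counts against 241, 169 and 137. siNC 2 was the lowest of all 6 libraries and siNC 1 and 3 the highest. The log2 fold change was -1.03 ± 0.52 (SE) with all libraries and -1.43 ± 0.27 (SE) without siNC 2. The latter missed the threshold (adjusted p = 0.0569, edgeR's quasi-likelihood test, Benjamini-Hochberg), and over all alternatives the adjusted p ran from 0.0569 to 1.

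The dimer partner Rxra also had siNC 1 and 3 above all siPiezo1 libraries, but siNC 2 among them, with 119, 78.8 and 141 CPM in siNC and 87.9, 92.1 and 73.3 CPM in siPiezo1, and had -0.42 ± 0.21 (SE) with all libraries and -0.62 ± 0.12 (SE) without siNC 2, past the threshold in neither. Ppard, a sister receptor, had -0.43 ± 0.34 and, without siNC 2, 0.10 ± 0.12 (SE). Among 14 PPARgamma targets 12 were tested, 10 below 0 with all libraries (median -0.21) and 8 below 0 without siNC 2 (median -0.17). Lpl, which encodes lipoprotein lipase, was at 964, 389 and 963 CPM in the 3 siNC libraries and 497, 498 and 462 CPM in the 3 siPiezo1 libraries. Without siNC 2 Lpl fell, at -0.99 ± 0.06 in log2 fold change (SE, adjusted p = 0.000679, edgeR's quasi-likelihood test, Benjamini-Hochberg). With Cd36 it made the 2 targets called without siNC 2, both lower. With all libraries Lpl had -0.67 ± 0.33 and Cd36 -0.14 ± 0.23 (SE), and neither was called. Fabp4, a fatty acid carrier, had -0.28 ± 0.39 with all libraries and -0.64 ± 0.12 (SE) without siNC 2 and was not called.

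Irf4 (ENSMUSG00000021356) encodes the transcription factor that cooperates with STAT6 in IL-4 responses. It was at 0.444, 0.78 and 0.0598 CPM in the 3 siNC libraries and 0.0559, 0 and 0 CPM in the 3 siPiezo1 libraries. These are 27, 59 and 4 counts against 4, 0 and 0, and 1 fragment was worth about 3.79 counts. siNC 3 and siPiezo1 1 thus held about 1 fragment each, and no test was made. The relatives Irf5 and Irf8 had log2 fold changes of 0.17 ± 0.31 and 0.65 ± 0.25 (SE) with all libraries and -0.12 ± 0.18 and 0.49 ± 0.30 (SE) without siNC 2. The 7 tested of 9 interferon regulatory factors were all above 0 with a median of 0.13; without siNC 2 the median was -0.09, with 3 above 0. None was called in either fit.

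Of 18 transcription factors of alternative activation 17 were tested, 13 below and 4 above 0 (median -0.18), and without siNC 2 it was 9 and 8 (median -0.02). None was called with all libraries by edgeR or DESeq2. Without siNC 2 edgeR called 1 lower and 1 higher. The 1 called higher was Bhlhe40, which encodes a basic helix-loop-helix repressor (0.84 ± 0.14, SE, adjusted p = 0.0362, quasi-likelihood test of edgeR, Benjamini-Hochberg). With all libraries Bhlhe40 had 0.2 ± 0.4 (SE). Klf4 and Egr2, both induced by IL-4, had -0.05 ± 0.31 and -0.30 ± 0.38 (SE) with all libraries and 0.30 ± 0.23 and -0.23 ± 0.41 (SE) without siNC 2.

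Arg1 (ENSMUSG00000019987) encodes arginase 1, which turns arginine into ornithine and urea and competes with the nitric oxide synthase Nos2 for its substrate. It was at 0, 48.0 and 0.0598 CPM in the 3 siNC libraries and 0.0559, 0.518 and 1.48 CPM in the 3 siPiezo1 libraries. These are 0, 3629 and 4 counts against 4, 39 and 99, so siNC 2 held almost all Arg1 reads of its group. With all libraries the log2 fold change was -4.55 ± 2.53 (SE), and without siNC 2 it was 4.40 ± 1.71 (SE), so the sign rests on that library; with siNC 1 at 0 and siNC 3 at about 1 fragment, the size of the latter depends on the fit's prior count. Neither passed the edgeR threshold (adjusted p = 0.978 and 0.293, Benjamini-Hochberg).

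Of the 14 arginine metabolism genes, Arg1 included, 8 were highest in siNC 2. Nos2 was at 13.2, 211 and 13.5 CPM in the 3 siNC libraries and 39.0, 27.4 and 60.7 CPM in the 3 siPiezo1 libraries, above siNC 1 and 3 in every siPiezo1 library. The cationic amino acid transporter Slc7a2 was at 7.95, 103 and 7.28 CPM in the 3 siNC libraries and 12.6, 11.2 and 15.8 CPM in the 3 siPiezo1 libraries. Odc1, which makes putrescine from ornithine, stood at 135 CPM in siNC 2 and at 22.0 to 28.1 CPM elsewhere. Of these genes 13 were tested, 9 below 0 with all libraries (median -0.19) and 3 below 0 without siNC 2 (median 0.26). Without siNC 2 Ass1, which rebuilds arginine from citrulline, rose (0.49 ± 0.08, SE; adjusted p = 0.03, edgeR's quasi-likelihood test, Benjamini-Hochberg), while Arg2, the mitochondrial arginase, had 0.45 ± 0.11 (SE) and Nos2 1.66 ± 0.39 (SE), neither past the threshold; with all libraries Arg2 had 0.33 ± 0.14, Nos2 -0.90 ± 1.08 and Ass1 0.19 ± 0.22 (SE).

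Chil3 (ENSMUSG00000040809) encodes Ym1, a secreted chitinase-like lectin that is also made by immature neutrophils. It was at 66.6, 368 and 68.4 CPM in the 3 siNC libraries and 67.1, 64.4 and 59.0 CPM in the 3 siPiezo1 libraries. Apart from siNC 2 the libraries lay within 59.0 to 68.4 CPM, and siNC 2 held 5.44 times the mean of siNC 1 and 3. The log2 fold change was -1.40 ± 0.68 with all libraries and -0.09 ± 0.08 (SE) without siNC 2, past the edgeR threshold in neither. The neutrophil markers S100a9 (1044 CPM in siNC 2, 161 to 208 CPM elsewhere) and Elane (46.1 CPM against 0.852 to 3.56 CPM) were also highest in siNC 2, as were 14 of 16 markers on that list, whose median log2 fold change was -1.10 with all libraries and 0 without siNC 2; their part in the Chil3 and Arg1 levels was not tested. Chil3 transcripts match Chil4 at 94.3% over 1540 bases and Gm6522 at 95.0% over 1171 bases, while Chil4 held at most 0.0529 CPM and Gm6522 was listed at 0 in all libraries. The relative Chil1 had log2 fold changes of -0.84 ± 0.35 and, without siNC 2, -0.34 ± 0.18 (SE).

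The RefSeq promoter of Chil3, the abundant member that was high in siNC 2, is on the minus strand of GRCm38.p6 at chr3:106167515-106167814. It holds 1 palindromic STAT motif (TTC, any 3 bases, GAA), in capitals.
Chil3 promoter: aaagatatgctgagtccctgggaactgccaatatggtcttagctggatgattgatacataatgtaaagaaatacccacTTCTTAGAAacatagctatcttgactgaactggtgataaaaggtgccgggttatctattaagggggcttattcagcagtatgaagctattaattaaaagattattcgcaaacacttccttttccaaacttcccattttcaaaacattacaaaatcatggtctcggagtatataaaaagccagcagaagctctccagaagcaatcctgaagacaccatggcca

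Retnla (ENSMUSG00000061100) encodes the secreted protein FIZZ1, one of the genes most strongly induced by IL-4 in mouse macrophages. It was listed at 0 in all 6 libraries. Taking 3 fragments as the limit of a count of 0, this allows up to 0.151 to 0.186 CPM per library, for counting error only. Of its relatives Retn reached 0.0897 CPM and Retnlg 0.822 CPM at most. Its RefSeq promoter, on the plus strand of GRCm38.p6 at chr16:48842359-48842658, is shown as the 1 member window with a STAT6-type motif (TTC, any 4 bases, GAA). Capitals mark that match and a PU.1 core on the opposite strand, TTCCTC.
Retnla promoter: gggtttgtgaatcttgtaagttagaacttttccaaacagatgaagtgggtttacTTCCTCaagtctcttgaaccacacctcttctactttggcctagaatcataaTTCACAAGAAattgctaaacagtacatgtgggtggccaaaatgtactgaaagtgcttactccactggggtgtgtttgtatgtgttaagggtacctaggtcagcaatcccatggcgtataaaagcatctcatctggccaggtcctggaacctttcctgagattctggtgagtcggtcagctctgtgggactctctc

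RefSeq promoter windows of 300 bases were matched for 8 of the 10 genes (all but Arg1 and Clec10a), 10 windows in all, with 3 for Pparg. On either strand, the STAT6-type motif, TTC and GAA with 4 bases between, occurred in the windows of 1 gene, Retnla, and in 6.95% of all 32851 windows. The motif of other STAT proteins, TTC and GAA with 3 bases between, occurred in 1 gene, Chil3, and in 8.3% of windows. The PU.1 core GAGGAA occurred in 5 genes (Mrc1, Stab1, Retnla, Pparg and Irf4) and in 28.3% of windows. Of the 3 Pparg windows only that at chr6:115362099-115362398 held it. For all these motifs the counts are of genes and the shares are of windows, so they are not directly comparable. The marked matches of these motifs do not overlap each other. A match is a description of the letters, and its absence says nothing of binding elsewhere.

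Ccl22 (ENSMUSG00000031779) encodes a chemokine that draws CCR4-bearing T cells and is induced by IL-4. It was at 0.576, 3.66 and 0.628 CPM in the 3 siNC libraries and 0.363, 0.305 and 0.239 CPM in the 3 siPiezo1 libraries, or 35, 277 and 42 counts against 26, 23 and 16. The groups did not overlap, and siNC 2 held 6.09 times the mean of siNC 1 and 3. The log2 fold change was -2.42 ± 0.82 with all libraries and -0.99 ± 0.72 (SE) without siNC 2, past the edgeR threshold in neither (adjusted p = 0.978 and 0.622, Benjamini-Hochberg). The other CCR4 ligand gene, Ccl17, and Ccr4 itself were listed at 0 throughout. In the list of 13 CC chemokine genes 9 of 10 tested were below 0 (median -1.43), but without siNC 2 it was 4 of 10 (median 0.17), and 0 were called in either fit.

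**Figure D3:**
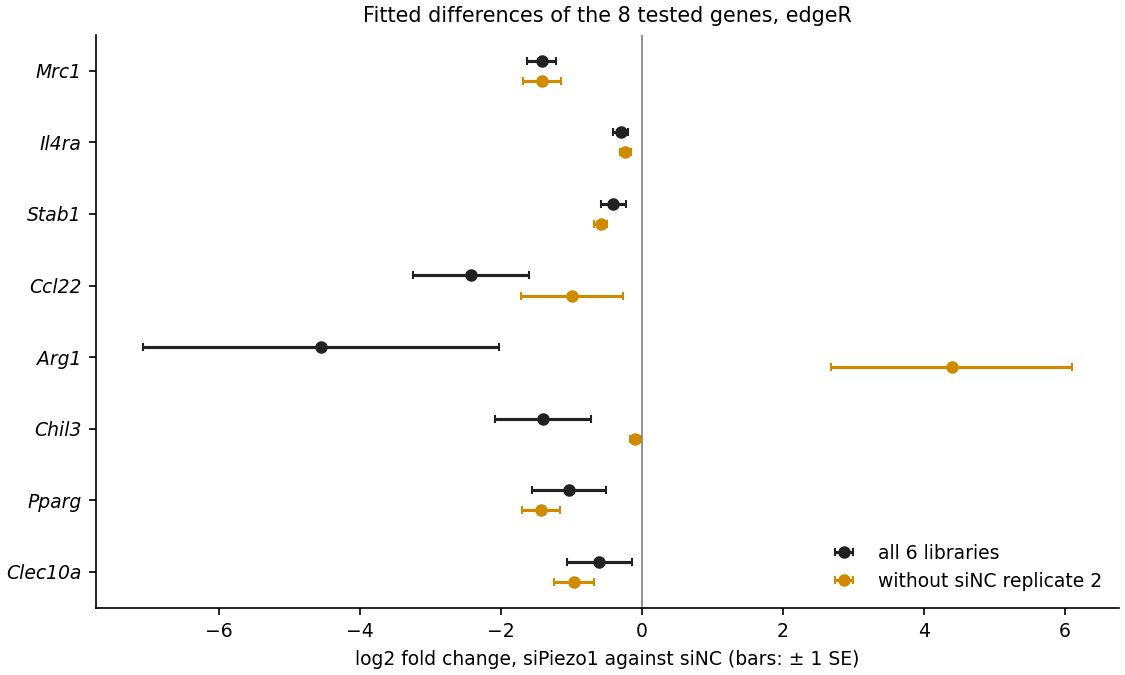
Log2 fold change of siPiezo1 against siNC from edgeR (horizontal axis, bars ± 1 SE) for the 8 tested genes, with all 6 libraries (black) and without siNC replicate 2 (orange). Mrc1 stays at -1.42 in both, Chil3 moves from -1.40 to -0.09, and Arg1 changes sign.

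Per kilobase of exon (GENCODE M21 exon lengths), the order of the 4 abundant genes differed between the groups. In siNC Mrc1 stood at 30.8 to 31.1 CPM per kb, above Il4ra at 25.5 to 30.6. In siPiezo1 Mrc1 stood at 9.46 to 15.6 CPM per kb, below Il4ra at 21.1 to 24.8, and the ranges did not overlap in either group. Stab1 and Chil3 were the highest in both groups, at 37.2 to 45.7 and 36.1 to 41.1 CPM per kb in siPiezo1, and their ranges overlapped. In siNC Stab1 stood at 41.0 to 64.5 and Chil3 at 40.8 to 225 CPM per kb, also overlapping.

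Other markers of alternative activation were taken from a separate list of 34 genes, of which 33 were in the table and 23 were tested. With all libraries 19 were below and 4 above 0 (median -0.51), and without siNC 2 it was 15 and 8 (median -0.14); for all genes the medians were -0.01 and 0. edgeR and DESeq2 called 0 of them with all libraries, and edgeR called 1, Cd36, without siNC 2. Folr2, the folate receptor of resident macrophages, was at 45.9, 10.1 and 51.3 CPM in the 3 siNC libraries and 29.1, 27.6 and 18.8 CPM in the 3 siPiezo1 libraries, the order seen for Pparg and Clec10a. Tgm2, a transglutaminase that marks alternative activation in mouse and human, stood at 242 to 252 CPM in siNC and at 255 to 277 CPM in siPiezo1, without overlap and with a log2 fold change of 0.09 ± 0.07 (SE). Cd200r1 had -0.15 ± 0.17 and, without siNC 2, -0.23 ± 0.19 (SE), and Pdcd1lg2, at most 0.583 CPM, and Lyve1, at most 0.0988 CPM, were near background.

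**Figure D4:**
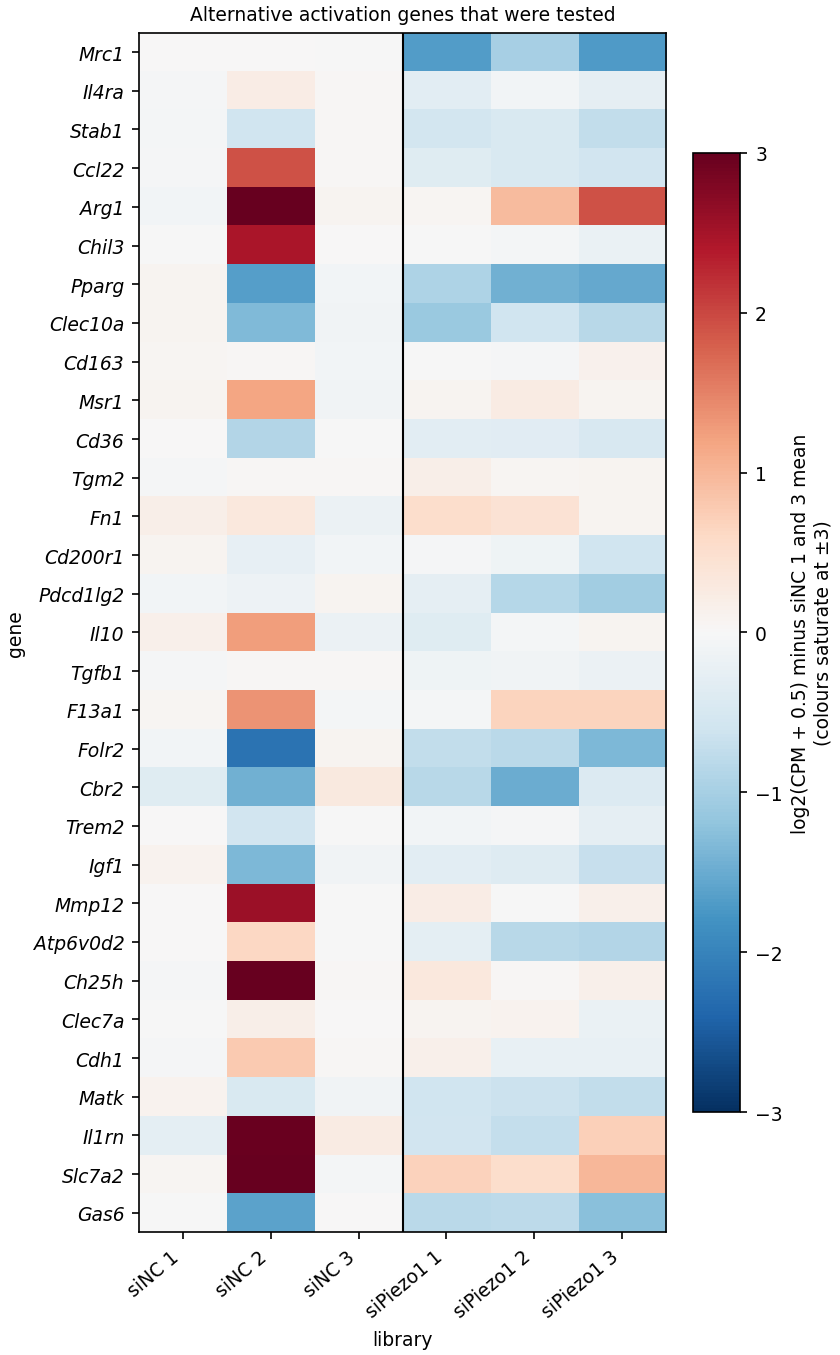
The 31 tested genes of alternative activation (rows) in 6 libraries (columns), coloured by log2(CPM + 0.5) minus that of the mean of siNC 1 and 3 (red higher, blue lower, saturating at ±3). Arg1, Chil3, Mmp12, Il1rn and Slc7a2 are red in siNC 2, Pparg, Folr2 and Gas6 are blue there, and Mrc1 is blue in siPiezo1 and white in siNC 2.

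The genes thus differed in how siNC 2 related to its group, and Mrc1 and Il4ra were the abundant members in which it lay close to siNC 1 and 3, at 1 and 1.16 times their mean. Stab1, Clec10a and Pparg were lower in siNC 2, at 0.656, 0.333 and 0.267 times that mean. Chil3 and Ccl22 were higher, at 5.44 and 6.09 times. Over the 8710 genes with at least 10 CPM on average, siNC 2 was more than 1.5-fold from that mean in 19.3% and more than 2-fold in 7.28%.

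Markers of classical activation, the inflammatory state induced by interferon gamma and lipopolysaccharide, also depended on siNC 2. Their summed level was 2179 CPM in siNC 2, 770 and 753 CPM in siNC 1 and 3, and 932 to 1050 CPM in siPiezo1. Of 18 tested genes of this list 13 were below 0 with all libraries (median -0.60) and 4 without siNC 2 (median 0.31). The formyl peptide receptor Fpr2 was at 278, 239 and 280 CPM in siNC and 404, 337 and 391 CPM in siPiezo1. DESeq2 called it higher with all libraries (adjusted p = 0.0234, Benjamini-Hochberg). The quasi-likelihood test of edgeR (adjusted p = 0.744) and limma-voom (adjusted p = 0.698) did not. Without siNC 2 it also missed the threshold in edgeR's test (adjusted p = 0.0553).

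The macrophage identity list had a median log2 fold change of -0.03 with all libraries and -0.11 without siNC 2. Its complement genes C1qa, C1qb and C1qc had -1.45 ± 0.22, -1.65 ± 0.26 and -1.39 ± 0.26 (SE) without siNC 2, near or below the -1.42 of Mrc1. With all libraries they had -0.96 ± 0.66, -1.15 ± 0.68 and -0.91 ± 0.63 (SE), smaller in size than the -1.42 that Mrc1 kept. They were called in neither fit. Without siNC 2 edgeR called Adgre1, the F4/80 gene, and the Fc receptor gene Fcgr1 lower. They had -0.31 ± 0.05 and -0.46 ± 0.07 (SE, adjusted p = 0.0375 and 0.0283, quasi-likelihood test, Benjamini-Hochberg). With all libraries they had -0.16 ± 0.15 and -0.19 ± 0.26 (SE) and were not called. Markers of dendritic cells, of lymphocytes, and of eosinophils, basophils and mast cells were scarce: 9 of 11, 9 of 12 and 9 of 13 stayed under 1 CPM in every library. Flt3, which defines dendritic cell precursors, reached 0.0531 CPM at most, and Cd3e and Ncr1 were at 0. Over the 23 lists 194 genes that are not among the 10 were tested; edgeR called 0 with all libraries (7 lower and 10 higher at an unadjusted p under 0.05), limma-voom 0 and DESeq2 1. Without siNC 2 edgeR called 5 lower and 4 higher of 195 tested, where it called 0.45% of all genes lower and 0.645% higher.

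Genes with the pattern most like Mrc1 were sought by Pearson correlation of log2 CPM over the 6 libraries. The 2141 candidates were tested genes with a symbol, at least 10 CPM on average and a standard deviation of at least 0.25. Predicted gene models with Gm or Rik names were left out before ranking. The 5 closest were Hip1 (r = 0.986), Klhl6 (0.983), Fos (0.972), Atp6v0a1 (0.966) and Tubb2a (0.957). Hip1, which encodes a clathrin and actin adaptor, was at 108, 110 and 102 CPM in the 3 siNC libraries and 68.7, 87.1 and 72.2 CPM in the 3 siPiezo1 libraries. Klhl6 was at 16.5, 17.4 and 15.2 CPM in the 3 siNC libraries and 9.25, 11.8 and 8.10 CPM in the 3 siPiezo1 libraries. In both, as in Mrc1, siPiezo1 2 was the highest library of its group. Of the 10 genes only Stab1 and Chil3 met the same limits, with r = 0.69 and 0.47 against Mrc1. The points share their libraries and the search ran over all candidates, so the values are descriptive.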

How the data were processed

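Poly(A) RNA of 6 libraries was measured by paired-end sequencing, per the labels' protocols. Per the submitters' processing notes, cutadapt 1.9, HISAT2 2.0.4, StringTie 1.3.4d, DESeq2 and edgeR were used with build GRCm39; the step each served, the annotation and any use of strand were not given in the sources used here. Whole-number estimated counts per Ensembl gene were deposited by the authors, unscaled, so no rounding was needed; low values pile up at multiples of about 3.79 counts, the worth of 1 fragment. The design assumed counts, and the same test was used. Columns left unmapped numbered 0.

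Of 55401 identifiers, 55141 were given symbols by GENCODE M21; promoter sequences are RefSeq's, build GRCm38.p6. The fit used edgeR 4.0.16 in R 4.3.3: filterByExpr, TMM factors, a robust quasi-likelihood test with group as the only term, and Benjamini-Hochberg adjustment over 15959 genes. SE is the absolute log2 fold change over the root of the F statistic. The permutation test used log2(CPM + 0.5). Near-identical copies were sought with blastn, at 85% identity or more over at least 500 bases. Alternatives were DESeq2 1.42.0 and its size factors, limma-voom (limma 3.58.1), no filter (at least 1 count), at least 50 counts in 3 libraries, counts divided by 4, the replicate number as a block, and each library left out in turn.

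The 10 genes and the 23 lists were chosen with earlier results of these data known. Named genes were the 10 genes, relatives and pathway partners fixed by role, list genes past the threshold with all libraries or without siNC 2, and the 5 genes most like Mrc1. Mmp12, Il1rn, Gas6, Mertk, Gm44876, Nt5dc2, Gm6522, Fpr2, Tnnt2, Mbp, Alb, Myh6, Flt3, Cd3e, Ncr1 and the complement genes were also named, some after their values were seen. One listed gene is counted in its list but not reported here by name.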

Additional observations from a re-analysis of the deposited data

How the results depend on the processing

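The Mrc1 log2 fold change kept its sign in all 13 alternatives, from -1.70 to -1.30 with a library left out and from -1.46 to -1.42 otherwise. It passed the threshold with DESeq2 (-1.43) and without siPiezo1 replicate 2 (-1.70), and in no other alternative. Of the 10 genes, the number called was 0 in the main test, 1 with DESeq2, and 0 to 1 with a library left out. Among all genes tested 1 was called, against 88 with DESeq2, 0 with the replicate block and 0 to 180 with a library left out. Of the 194 other list genes 0 were called, against 1 with DESeq2 and 0 to 9 with a library left out. Arg1 ranged from -5.78 to 4.40 with a library left out and turned from -4.55 to 4.40 without siNC replicate 2, and DESeq2 gave it no p-value. The cause of these changes was not tested, except that Arg1 has 3629 of its counts in siNC 2. Il4ra, Stab1, Ccl22, Chil3, Pparg and Clec10a stayed below 0 in every alternative in which they were tested. Their sizes did not all hold: without siNC replicate 2 Chil3 went from -1.4 to -0.09 and Ccl22 from -2.42 to -0.99. The alternatives share the same libraries, so a kept sign is not separate evidence.

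Libraries with the same number did not deviate together (correlations of 0.03, -0.06 and -0.09 for pairs 1, 2 and 3), so the numbers were not taken as pairs. With the replicate block Mrc1 had -1.46 (adjusted p = 0.997, edgeR's quasi-likelihood test, Benjamini-Hochberg). Depth limits Irf4, Retnla and, outside siNC 2, Arg1 and Ccl22, which rest on at most 99 counts per library.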

Other observations

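Complement genes of resident-type macrophages, which lay on the macrophage list, showed the order of Pparg and Clec10a. C1qb, a chain of the C1q recognition protein, was at 332, 47.2 and 376 CPM in the 3 siNC libraries and 128, 131 and 80.2 CPM in the 3 siPiezo1 libraries, and C1qa at 95.8, 13.8 and 102 CPM against 35.8, 45.5 and 27.2 CPM. siNC 1 and 3 lay above all siPiezo1 libraries and siNC 2 lay below them. Gas6, a ligand that bridges dying cells to receptors such as Mertk, was at 384, 126 and 386 CPM in the 3 siNC libraries and 218, 224 and 161 CPM in the 3 siPiezo1 libraries, and Mertk at 94.3, 32.1 and 93.8 CPM against 55.6, 74.3 and 57.7 CPM. Without siNC 2 their log2 fold changes were -1.65 ± 0.26 for C1qb, -1.45 ± 0.22 for C1qa, -0.94 ± 0.15 for Gas6 and -0.59 ± 0.13 for Mertk (SE), none past the edgeR threshold (adjusted p = 0.109, 0.0729, 0.0737 and 0.0853, Benjamini-Hochberg). With all libraries they were -1.15 ± 0.68, -0.96 ± 0.66, -0.57 ± 0.41 and -0.23 ± 0.39 (SE) in the same order of genes, and none was called. These genes were picked after their values were seen.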
